A study of Mus musculus with 25 samples.

Results

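The mRNA of 10 extracellular matrix genes, which in the heart are mainly expressed by fibroblasts, was followed in the hearts of 25 mice. The 10 were chosen by symbol as the glycoproteins and proteoglycans Postn, Fn1, Sparc, Fbn1, Eln, Lum, Dcn, Bgn, Thbs1 and Tnc. All 10 were found among the 35969 genes of the table, and 9 were among the 11984 genes tested. The mice were male GPx4+/- animals, which are haploinsufficient for glutathione peroxidase 4, an enzyme that reduces lipid peroxides, and their wild type (WT) littermates, from a colony backcrossed to C57BL6/J. From an age of 8 to 10 weeks they received normal chow (CNTL) or a diet high in fat and sucrose (HFHS) for 16 weeks. There were 5 mice in each of 5 groups. WT CNTL and WT HFHS were the wild type arms, GPx4+/- CNTL and GPx4+/- HFHS the haploinsufficient ones, and WT HFHS + Carnosine was a further wild type arm with the dipeptide l-carnosine at 80 mM in its drinking water from week 7. The combination of GPx4+/-, HFHS and carnosine was not analysed here. The study's methods describe a bolus of dextrose or saline after food restriction before the hearts were taken. The labels do not say which mouse received which. The bolus therefore cannot be told apart from the spread within groups or from differences between groups. The study asked whether carnosine limits fibrosis of the obese heart, and the matrix genes bear on that question at the level of mRNA.

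The matrix around heart cells is built of collagen fibrils, elastic fibres and a set of proteins that organise them. Small leucine-rich proteoglycans such as decorin and biglycan bind collagen and set fibril width. Matricellular proteins such as periostin, osteonectin and thrombospondin are secreted in growing or injured tissue and act on cells and on fibril assembly more than as scaffold. In the heart these genes are read as signs of active fibroblasts, and several of them are known targets of TGF-β signalling.

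Values are scaled TPM, that is, transcript TPM (a length-normalised relative abundance) summed over the transcripts of a gene and divided by a median-ratio factor for the library, so levels can be compared between genes as well as between mice. Differences are log2 fold changes from limma on log2(scaled TPM + 0.5), with Benjamini-Hochberg adjusted p-values over the 11984 genes whose mean over the libraries was 1 scaled TPM or higher. An adjusted p under 0.05 is called a change. TPM keeps no read counts, so no counting error is given, and the number of reads behind a low value such as that of Tnc is unknown. The study's methods give an approximate read depth per sample. The added 0.5 makes fold changes of weakly expressed genes smaller than they would be without it.

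Some libraries held high levels of markers of other tissues. Gpx4 was lower in each of the 10 GPx4+/- libraries (250.5 to 382.8 scaled TPM) than in each of the 15 WT libraries (590.7 to 777.7 scaled TPM), so no library went against its genotype label. The ventricular cardiomyocyte markers summed to between 34840.5 and 45651.2 scaled TPM in all 25 mice, and all 10 fibroblast markers were at 1 scaled TPM or more in every mouse. The 6 atrial markers summed to between 31.5 and 594.6 in 21 mice, and to 4638.2 in WT CNTL replicate 3, 7443.5 in GPx4+/- CNTL replicate 1, 1499.5 in GPx4+/- CNTL replicate 2 and 2729.5 in GPx4+/- HFHS replicate 4. The 10 valve and cartilage-like markers, among them fibromodulin and chondroadherin, summed to 187.8 in WT CNTL replicate 3 and 185.4 in WT HFHS replicate 4 and to at most 91.3 elsewhere. The 6 hepatocyte markers reached 1072.6 in GPx4+/- CNTL replicate 2 and at most 78.4 elsewhere. These 5 mice are called the mice that stand apart, a choice made after their marker levels were seen, and the calls of Lum, Sparc and Bgn are given with and without them.

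Levels of the 10 genes differed widely. Decorin (Dcn), a collagen-binding proteoglycan, was the most abundant with a mean of 280.0 scaled TPM over the 25 mice, followed by Sparc at 174.1 and biglycan (Bgn) at 137.5. Periostin (Postn) at 22.5, lumican (Lum) at 19.9 and fibronectin (Fn1) at 12.6 formed a middle tier. Elastin (Eln) at 8.71, fibrillin 1 (Fbn1) at 8.14 and thrombospondin 1 (Thbs1) at 3.59 were low, and tenascin C (Tnc), which is associated with injury and development, had a mean of 0.263. The ranges of Postn (7.17 to 60.3) and Lum (10.3 to 33.3) overlapped over mice, as did those of Eln (6.08 to 21.2) and Fbn1 (4.64 to 13.2), so these neighbours in the order did not differ beyond their spread. The values of Dcn (210.1 to 422.6) also overlapped those of Sparc (116.3 to 257.6). The highest mouse had 2.01 times the lowest for Dcn and 2.21 times for Sparc, against 8.41 times for Postn, 12.6 times for Tnc and 15.6 times for Thbs1. With the mean of Tnc under 1 scaled TPM, 9 of the 10 genes entered the limma test.

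**Figure D1:**
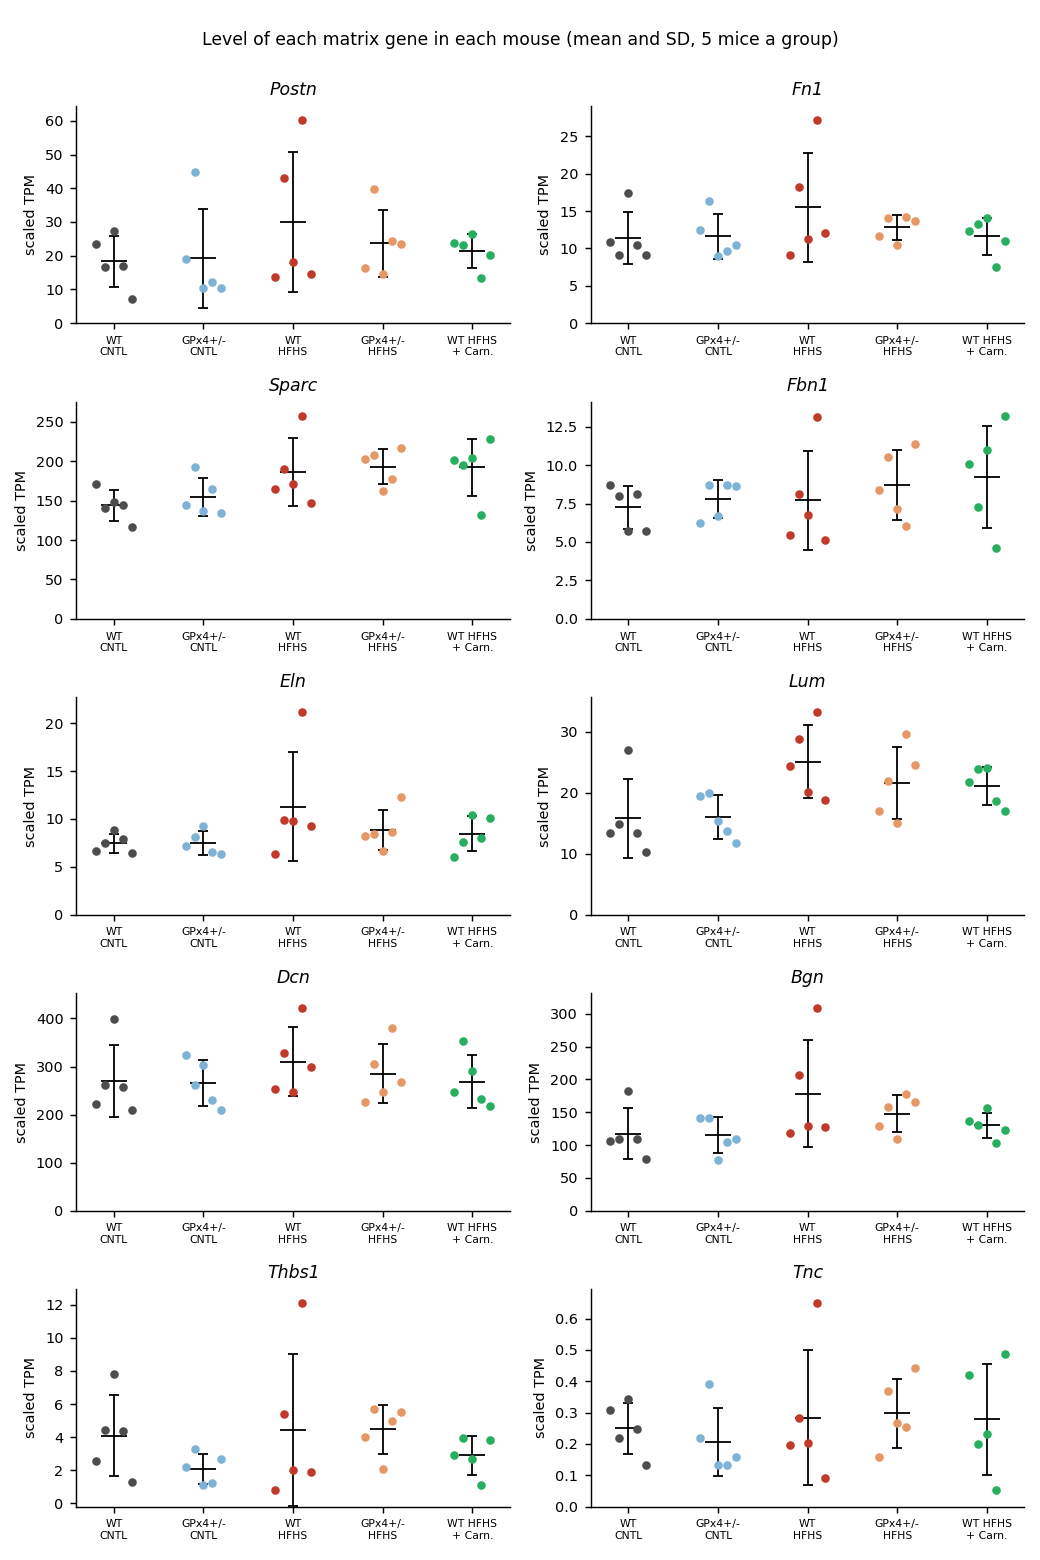
Scaled TPM (vertical axis, starting at 0, or just below it for Thbs1, whose SD bar in WT HFHS passes 0) of each of the 10 matrix genes in each of the 25 mice, in 5 groups of 5 (horizontal axis), with the group mean and SD as bars. The point of WT HFHS replicate 4 is the highest of its group in all 10 panels, and the points of Lum and Sparc are mostly higher in the HFHS groups than in the CNTL groups.

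Lumican and osteonectin mRNA were higher on the HFHS diet when both genotypes were combined. Lum rose 1.47-fold and Sparc 1.26-fold over both genotypes. Bgn and Eln had fold changes of 1.38 and 1.26 that did not pass. Of the 9 genes tested, 2 were called over both genotypes, both higher on HFHS. Over all genes 8.33% were called in this comparison, and 4.68% were called and higher. Within a single genotype none of the 9 was called, where 1.18% of all genes were called in WT and 3.34% in GPx4+/-. At an unadjusted p under 0.05 by limma there were 4 of the 9 in WT, 1 in GPx4+/- and 4 over both genotypes, beside 16.5%, 18.3% and 24.5% of all genes. The median log2 fold change of the 9 was 0.34 over both genotypes, beside a median of -0.002 over all genes. Of the 9, 9 were above 0, beside 49.1% of all genes. The matrix genes were correlated within groups (median r 0.68), so the 9 were not separate readings.

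Lum, which encodes lumican, a keratan sulfate proteoglycan that regulates collagen fibrils, lies on chromosome 10 (chr10:97565128-97572703, plus strand, GRCm38) and has 1 annotated transcript. In WT CNTL the 5 mice had 13.4, 14.9, 27.1, 13.4 and 10.3 scaled TPM, and in WT HFHS they had 24.4, 28.8, 20.2, 33.3 and 18.8. In GPx4+/- CNTL they had 19.5, 19.9, 15.3, 13.7 and 11.7, and in GPx4+/- HFHS 17.0, 21.9, 15.0, 29.7 and 24.5. All 5 WT HFHS mice were above the WT CNTL median, while WT CNTL replicate 3, one of the mice with valve and atrial markers, lay within the HFHS range, so the groups overlapped. In WT the mean was 15.8 ± 6.50 scaled TPM on CNTL and 25.1 ± 6.02 on HFHS, and in GPx4+/- it was 16.0 ± 3.61 and 21.6 ± 5.90 (SD, n = 5 each). The log2 fold change was 0.55 over both genotypes (SE 0.161, limma adjusted p = 0.0395). It was 0.69 in WT (95% interval 0.22 to 1.17, limma adjusted p = 0.136) and 0.41 in GPx4+/- (-0.07 to 0.89, limma adjusted p = 0.36).

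Sparc encodes osteonectin, a matricellular protein that binds collagen and calcium (chr11:55394500-55423183, minus strand). Its 5 values were 171.5, 140.8, 148.1, 144.4 and 116.3 scaled TPM in WT CNTL and 164.2, 189.9, 171.3, 257.6 and 147.4 in WT HFHS. They were 144.8, 192.4, 137.3, 164.9 and 134.4 in GPx4+/- CNTL and 202.7, 207.3, 162.2, 177.2 and 216.8 in GPx4+/- HFHS. In each genotype all 5 HFHS mice were above the median of their CNTL group, and the groups overlapped. The log2 fold changes were 0.35 in WT (SE 0.134, limma adjusted p = 0.201) and 0.32 in GPx4+/- (SE 0.134, limma adjusted p = 0.196), and 0.34 over both (SE 0.095, limma adjusted p = 0.0327). The call held without the 5 mice that stand apart (0.34, limma adjusted p = 0.035) and was lost without the 2 mice with valve and cartilage-like markers (0.28, limma adjusted p = 0.0536) and with TPM as deposited (0.28, limma adjusted p = 0.143). The difference between the diet effects of the genotypes was -0.03 for Sparc (95% interval -0.42 to 0.37).

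The calls of both genes lay close to the threshold. When each of the 20 mice was left out in turn, Lum kept an adjusted p under 0.05 in 7 of 20 fits (limma, 0.00729 to 0.073), and Sparc in 12 of 20 (limma, 0.0163 to 0.0626). The log2 fold change stayed between 0.49 and 0.66 for Lum and between 0.28 and 0.38 for Sparc. The call of Lum was lost without WT CNTL replicate 1, 2, 4 or 5, GPx4+/- CNTL replicate 3, 4 or 5, WT HFHS replicate 1, 2 or 4, or GPx4+/- HFHS replicate 2, 4 or 5. That of Sparc was lost without WT CNTL replicate 2 or 5, GPx4+/- CNTL replicate 1, 3 or 5, WT HFHS replicate 2, or GPx4+/- HFHS replicate 1 or 5.

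The difference in Lum varied with the mice left out. Without the 5 mice that stand apart the log2 fold change was 0.65 over both genotypes (limma adjusted p = 0.00622) and 0.79 in WT (limma adjusted p = 0.0351). Without WT CNTL replicate 3 alone it was 0.90 in WT (limma adjusted p = 0.0306). Without WT HFHS replicate 4 alone it was 0.58 in WT (limma adjusted p = 0.275) and 0.50 over both genotypes (limma adjusted p = 0.0707). Without GPx4+/- HFHS replicate 4 alone it was 0.29 in GPx4+/- (limma adjusted p = 0.559) and 0.49 over both genotypes (limma adjusted p = 0.0686). With TPM as deposited, without the scaling, Lum had 0.50 over both genotypes (limma adjusted p = 0.0898).

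The 250 bases before the RefSeq start site of Sparc (GRCm38.p6, chr11:55420081-55420330, minus strand), Bgn (chrX:73483351-73483600, plus strand) and Postn (chr3:54360857-54361106, plus strand) are shown because these 3 genes were among those that varied together from mouse to mouse. Capitals mark matches, on either strand, to TATAAA (the TATA box), GGGCGG (a GC box), TGANTCA (an AP-1 site) or CAGACA (a SMAD-binding element).
Sparc: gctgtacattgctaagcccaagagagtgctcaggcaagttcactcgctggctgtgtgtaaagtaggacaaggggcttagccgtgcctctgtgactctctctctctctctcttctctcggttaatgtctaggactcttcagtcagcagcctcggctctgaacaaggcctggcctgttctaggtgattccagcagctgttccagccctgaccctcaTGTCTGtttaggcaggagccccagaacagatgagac
Bgn: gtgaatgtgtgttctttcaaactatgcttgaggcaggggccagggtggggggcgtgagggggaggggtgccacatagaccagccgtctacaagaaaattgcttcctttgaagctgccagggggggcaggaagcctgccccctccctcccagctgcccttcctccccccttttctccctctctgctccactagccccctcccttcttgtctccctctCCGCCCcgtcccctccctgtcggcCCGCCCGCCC
Postn: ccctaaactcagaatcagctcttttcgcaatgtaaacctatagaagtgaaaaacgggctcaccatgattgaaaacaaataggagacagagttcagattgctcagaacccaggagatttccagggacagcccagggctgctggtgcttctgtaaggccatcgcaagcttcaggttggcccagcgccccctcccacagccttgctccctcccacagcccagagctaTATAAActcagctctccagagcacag
The Sparc window held 1 match to CAGACA, on the opposite strand, and none to the other motifs. The Bgn window held 3 matches to GGGCGG, of which the last 2 overlap, and the Postn window 1 match to TATAAA close to the start site. The same length before 32851 start sites held TATAAA in 12.4%, GGGCGG in 32.7%, TGANTCA in 6.75% and CAGACA in 17.1%. Fbn1 had 1 match to GGGCGG, and each of the 2 overlapping Tnc windows had 1 match to TATAAA and 1 to GGGCGG, with 1 to CAGACA in only one of them. A second Postn window had no match. A match is a run of letters and not a measured binding site. No window before a start site was used for Fn1, Eln, Lum, Dcn and Thbs1.

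The other proteoglycans did not pass the test. Bgn (chrX:73483602-73495933, plus strand), whose product binds collagen and TGF-β, had 106.4, 108.9, 182.6, 109.7 and 78.3 scaled TPM in WT CNTL and 117.7, 206.0, 129.5, 309.5 and 127.9 in WT HFHS. In GPx4+/- it had 141.1, 141.8, 76.8, 104.5 and 109.7 on CNTL and 128.6, 157.9, 108.7, 177.2 and 165.0 on HFHS. WT HFHS replicate 4 stood far above the rest, and all 5 WT HFHS mice were above the WT CNTL median. The log2 fold change of Bgn was 0.46 over both genotypes (SE 0.178, limma adjusted p = 0.114), and 0.51 without the 5 mice that stand apart (limma adjusted p = 0.037). Dcn (chr10:97479609-97518143, plus strand), which ends 46984 bases before Lum begins, had a log2 fold change of 0.15 over both genotypes (SE 0.128, limma adjusted p = 0.505). In WT the mean went from 270.0 ± 75.5 scaled TPM on CNTL to 309.9 ± 71.3 on HFHS, and in GPx4+/- from 266.1 ± 48.2 to 285.3 ± 60.8 (SD, n = 5 each). With 1 mouse left out the log2 fold change of Dcn over both genotypes ranged from 0.09 to 0.23.

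The other matricellular genes varied widely between mice, and none passed the test. Postn (chr3:54361109-54391037, plus strand), which supports collagen crosslinking and is a marker of activated fibroblasts, ranged from 7.17 to 27.2 scaled TPM in WT CNTL and from 13.8 to 60.3 in WT HFHS. It ranged from 10.3 to 44.8 in GPx4+/- CNTL and from 14.6 to 39.9 in GPx4+/- HFHS. Its highest CNTL value came from GPx4+/- CNTL replicate 2, the library with hepatocyte markers. The log2 fold change was 0.50 over both genotypes (95% interval -0.17 to 1.18, limma adjusted p = 0.361).

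Thbs1 (chr2:118111876-118127133, plus strand), an activator of latent TGF-β, had diet differences that did not pass the test. Its values were 2.56, 4.41, 7.81, 4.35 and 1.29 scaled TPM in WT CNTL, 0.774, 5.40, 2.03, 12.1 and 1.91 in WT HFHS, 2.18, 3.25, 1.12, 1.24 and 2.66 in GPx4+/- CNTL, and 4.01, 5.69, 2.08, 5.00 and 5.51 in GPx4+/- HFHS. WT HFHS replicate 4 was the highest of all mice, and 4 of the 5 GPx4+/- HFHS mice were above every GPx4+/- CNTL mouse. In WT the mean was 4.08 on CNTL and 4.44 on HFHS, so the means and the fitted log2 values differed in sign. The log2 fold change was -0.18 in WT (SE 0.492) and 0.95 in GPx4+/- (SE 0.492, limma adjusted p = 0.32). In WT it was 0.08 without WT CNTL replicate 3, 0.19 without WT HFHS replicate 1 and -0.64 without WT HFHS replicate 4. The difference between the diet effects was 1.13 (95% interval -0.33 to 2.58, limma adjusted p = 0.739). Tnc (chr4:63959785-64047015, minus strand) lay between 0.0514 and 0.648 scaled TPM in all 25 mice and was not tested with limma, and exact permutation gave p = 0.889 for the diet in WT and 0.175 in GPx4+/- (two-sided, n = 5 against 5).

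The glycoproteins of the fibrous scaffold did not pass either. Fn1 (chr1:71585520-71653200, minus strand), which links cells to the matrix through integrins, had a log2 fold change of 0.26 over both genotypes (SE 0.167, limma adjusted p = 0.36). Eln (chr5:134702593-134747323, minus strand), the core of elastic fibres, had one of 0.34 (SE 0.151, limma adjusted p = 0.174). In WT its means were 7.47 ± 0.993 (SD, n = 5) on CNTL and 11.3 ± 5.73 (SD, n = 5) on HFHS, and the HFHS spread came mostly from WT HFHS replicate 4 at 21.2 against 6.30 to 9.90 in the other 4. Fbn1 (chr2:125300594-125507993, minus strand), the main protein of microfibrils, had a log2 fold change of 0.08 (SE 0.148, limma adjusted p = 0.794). Its sign in WT changed from 0.03 to -0.17 without WT HFHS replicate 4 and to -0.25 without the 5 mice that stand apart. Over both genotypes, with 1 mouse left out, Fn1 ranged from 0.15 to 0.34 and Eln from 0.21 to 0.42.

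WT HFHS replicate 4 was the highest of its group for all 10 genes, and WT CNTL replicate 3 and GPx4+/- CNTL replicate 2 were the highest of theirs for 8 of 10 each. The 10 genes together summed to 1157.5 scaled TPM in WT HFHS replicate 4, against 594.7 to 837.4 in the other 4 of its group. This mouse also had the highest summed smooth muscle markers (1351.1, others of all groups at most 1069.3) and myofibroblast markers (349.8, others at most 153.4), beside the valve and cartilage-like markers given above. Acta2, smooth muscle actin, is in both lists and reached its highest value of all mice, 282.9 scaled TPM, in this mouse, so the 2 sums are not separate readings. Des, with a mean of 715.4 and a range of 627.7 to 787.5 over the 25 mice, made up much of the smooth muscle sum. Of the valve and cartilage-like list, Hapln1, Acan and Sox9 were under 1 scaled TPM in every mouse. The part of these other tissues in the matrix levels was not tested. Without WT HFHS replicate 4 the log2 fold changes in WT were 0.25 for Postn, 0.14 for Fn1, 0.21 for Eln, 0.33 for Bgn, 0.23 for Sparc and 0.58 for Lum. With it they were 0.56, 0.37, 0.46, 0.55, 0.35 and 0.69. In bulk tissue, fewer or more fibroblasts and less or more RNA per fibroblast cannot be told apart. In the comparison over both genotypes 998 of all 11984 genes were called (8.33%), 561 higher and 437 lower. Of all genes 49.1% had a log2 fold change above 0. The markers moved as follows. Of the 10 fibroblast markers, 10 of 10 had a log2 fold change above 0 over both genotypes (median 0.32), and 1 was called, Pdgfra (named after its values were seen), the receptor that marks resident fibroblasts (0.29, limma adjusted p = 0.0472). The summed fibroblast markers ranged from 659.2 to 1409.3 scaled TPM on CNTL and from 827.9 to 1530.0 in the 2 HFHS groups without carnosine. Over both genotypes 0 of 9 smooth muscle markers were called (median log2 fold change 0.53), and of 8 ventricular cardiomyocyte markers 2 were called lower, Myh6 and Ttn (-0.17 and -0.27, limma adjusted p = 0.0314 and 0.00123, named after their values were seen). An unadjusted p under 0.05 by limma was reached by 5 smooth muscle, 6 fibroblast and 6 ventricular markers, beside 24.5% of all genes. In the other lists 0 were called. The median was -0.90 for the 6 atrial markers (0 above 0), -0.33 for 5 hepatocyte markers (0 above 0), 0.26 for 5 endocardium and vein markers (5 above 0), 0.18 for 5 myofibroblast markers (5 above 0), 0.10 for 6 macrophage markers (6 above 0), 0.09 for 6 endothelium markers (5 above 0) and 0.07 for 6 valve and cartilage-like markers (4 above 0). Within WT the smooth muscle median was 0.85, with 7 of 9 at an unadjusted p under 0.05 by limma, beside 16.5% of all genes. Within GPx4+/- it was 0.18, with 0 of 9, beside 18.3%. The endocardium and vein median was 0.52 in WT and 0.01 in GPx4+/-. The part of these shifts in the matrix levels was not tested either.

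No gene of the 10 had groups that separated fully between diets. In WT 4.51% of all genes tested had all 5 HFHS mice on one side of all 5 CNTL mice, and in GPx4+/- 4.47% did. The smallest two-sided exact permutation p among the 10 genes was 0.0397, for Lum in WT and for Sparc and Thbs1 in GPx4+/- (n = 5 against 5, where 0.00794 is the smallest possible).

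The choice of scale mattered for the count of called genes as a whole. With TPM as deposited, 37 genes were higher and 387 lower on HFHS in GPx4+/-, against 261 higher and 139 lower after scaling. There the median log2 fold change over all genes was -0.101 as deposited, against -0.002 after scaling, and Dcn changed sign from 0.10 to -0.01. Over both genotypes the split was 142 higher and 572 lower as deposited, against 561 and 437.

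**Figure D2:**
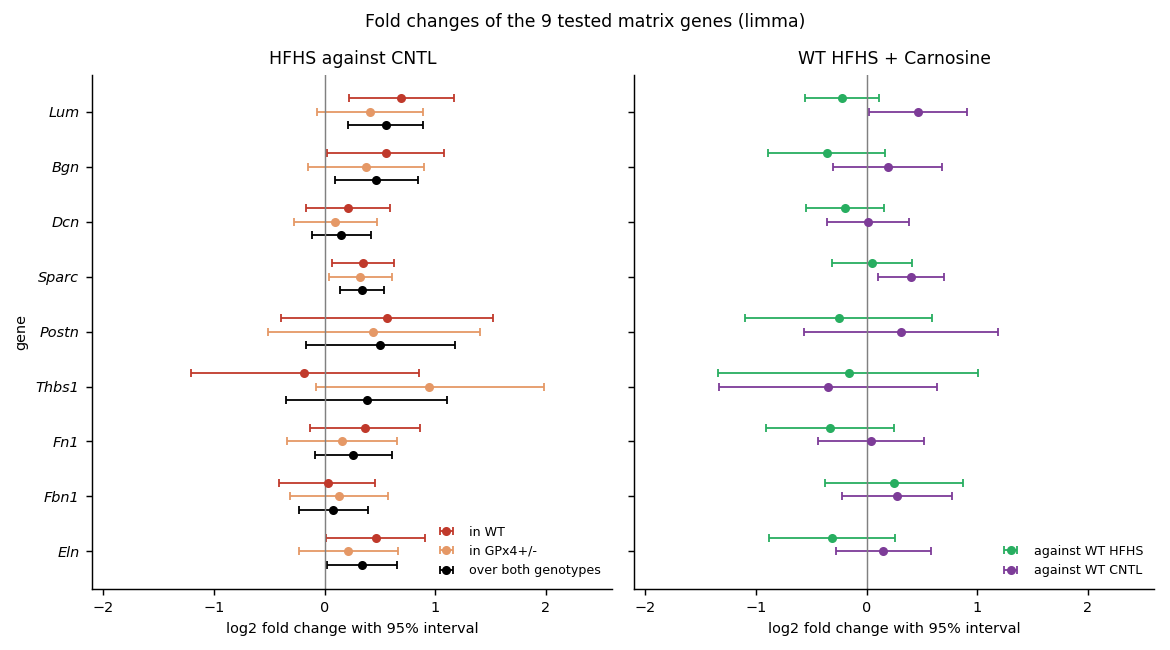
Log2 fold changes (horizontal axis, points) with 95% intervals (bars) of the 9 matrix genes tested (vertical axis), for HFHS against CNTL in WT, in GPx4+/- and over both genotypes (left), and for WT HFHS + Carnosine against WT HFHS and against WT CNTL (right). On the left the black intervals of Lum, Bgn, Sparc and Eln lie above 0, and on the right every interval against WT HFHS crosses 0.

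No difference between GPx4+/- and WT passed the test for the matrix genes. On CNTL 0 of the 9 tested genes were called, where 0.0501% of all genes were, on HFHS 0 of 9, again beside 0.0501%, and over both diets 0 of 9, beside 0.0584%. At an unadjusted p under 0.05 by limma the count was also 0 of 9 in all 3, beside 6.28%, 4.57% and 3.90% of all genes. The median log2 difference of the 9 was 0.00 on CNTL and -0.16 on HFHS. Thbs1 had the widest interval, with a log2 difference of -0.72 on CNTL (95% interval -1.75 to 0.31, limma adjusted p = 0.848) and 0.41 on HFHS (-0.62 to 1.44, limma adjusted p = 0.982). With 1 mouse left out these Thbs1 differences ranged from -1.01 to -0.46 on CNTL and from 0.04 to 0.86 on HFHS. Sparc had the narrowest 95% intervals of the 9, from -0.18 to 0.38 on CNTL and from -0.21 to 0.35 on HFHS. No difference between the diet effects of the genotypes passed for the 9, and 0.0% of all genes were called in that comparison (limma, with 856 genes at an unadjusted p under 0.05, 7.14% of all genes, of which 0 were among the 9).

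Carnosine was compared with plain water in WT mice on HFHS, which is the comparison closest to the study's question. None of the 9 genes tested was called, and over all genes 0.0% were (limma, 505 genes at an unadjusted p under 0.05, 0 of them among the 9). The log2 fold changes were below 0 for 7 of 9 genes, with a median of -0.23 beside -0.001 over all genes. Over all genes 49.6% were above 0. The matrix genes varied together within groups, so the 9 were not separate readings. Bgn was lowest at -0.36 (95% interval -0.89 to 0.17, limma adjusted p = 0.947), followed by Fn1 at -0.33 (-0.91 to 0.25) and Eln at -0.31 (-0.88 to 0.26). Sparc was at 0.05 (-0.31 to 0.41) and Fbn1 at 0.24 (-0.38 to 0.87). With 1 mouse left out Fbn1 ranged from 0.1 to 0.46. No gene of the 10 had separate groups, where 0.609% of all genes did.

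The 5 carnosine mice had 137.1, 131.2, 156.2, 103.4 and 122.2 scaled TPM of Bgn, all but 2 above the WT HFHS median of 129.5. All 5 were below WT HFHS replicates 2 and 4, at 206.0 and 309.5. Lum was at 21.7, 23.9, 24.0, 18.7 and 17.1, with 0 of 5 above the WT HFHS median of 24.4. Its difference was small beside the spread, at -0.23 (95% interval -0.56 to 0.11, limma adjusted p = 0.947). Sparc was at 201.1, 195.3, 204.2, 131.5 and 228.4, and replicate 4 lay well below the other 4. That mouse was the lowest of its group for 7 of the 10 genes.

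The values with carnosine depended on the mice used, WT HFHS replicate 4 among them. It was the highest of its group for all 10 genes, so leaving it out must raise each difference. This mouse had the highest summed level of its group in most marker lists. With carnosine the median log2 difference was -1.01 for the 6 valve and cartilage-like markers tested, -0.75 for the 9 smooth muscle markers and -0.51 for the 5 endocardium and vein markers tested, with 0 above 0 and 0 called in each list. Of the endocardium and vein markers 2 had an unadjusted p under 0.05 by limma, and of the smooth muscle markers 1, beside 4.21% of all genes. The 10 fibroblast markers had a median of -0.19, with 1 above 0 and 0 called, and the 5 myofibroblast markers tested had -0.25. The mouse was also the highest of its group for the endothelium, macrophage and hepatocyte markers, whose medians were 0.03, 0.02 and 0.05, and for the epicardium and adipocyte markers, of which 1 gene each was tested (0.15 and -0.99). The part of these lists in the matrix values was not tested. Without that mouse the log2 fold change of Bgn was -0.14, of Fn1 -0.10, of Eln -0.06, of Lum -0.12 and of Dcn -0.08. Postn turned from -0.25 to 0.06 and Thbs1 from -0.16 to 0.29, and Sparc had 0.17. Other single mice changed signs too. Thbs1 was 0.02 without WT HFHS replicate 2 and 0.09 without carnosine replicate 4. Sparc was -0.03 without WT HFHS replicate 5 and -0.02 without carnosine replicate 5. No call changed.

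Against WT CNTL the carnosine mice were compared in the fit of all 25 mice. None of the 9 genes was called, beside 1.18% of all genes. Sparc had a log2 fold change of 0.40 (SE 0.146, limma adjusted p = 0.195) and Lum one of 0.47 (SE 0.215, limma adjusted p = 0.337). Without carnosine replicate 4 the value of Sparc was 0.53 (limma adjusted p = 0.0408), and without the 5 mice that stand apart that of Lum was 0.68 (limma adjusted p = 0.0429). This comparison shares its WT CNTL mice with that of the diet in WT, so neither supports the other.

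Fn1 and Postn are spliced into forms that differ in use during wound healing, and the transcript values allow each alternative exon to be followed. The fibronectin exons EDA and EDB each encode an extra repeat of the protein, and inclusion of EDA is known from healing and fibrotic tissue. Exons were taken where some protein-coding transcripts of GENCODE M21 hold them and others skip them, with a mean share between 1% and 99% over the 25 mice, and this choice was made after the annotation was seen. The exon sequences are shown for both forms of fibronectin and for the 2 periostin exons with variable use, all of GRCm38, in lower case, with no part marked. They lie at chr1:71603660-71603929 (EDA, 270 bases, minus strand), chr1:71613763-71614035 (EDB, 273 bases, minus strand), chr3:54380412-54380492 (81 bases, plus strand) and chr3:54385671-54385754 (84 bases, plus strand).
EDA: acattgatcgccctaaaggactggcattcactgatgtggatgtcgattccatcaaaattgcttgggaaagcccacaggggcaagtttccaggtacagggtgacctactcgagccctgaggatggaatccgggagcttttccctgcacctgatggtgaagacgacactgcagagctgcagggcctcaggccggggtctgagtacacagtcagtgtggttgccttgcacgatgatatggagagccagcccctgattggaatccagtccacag
EDB: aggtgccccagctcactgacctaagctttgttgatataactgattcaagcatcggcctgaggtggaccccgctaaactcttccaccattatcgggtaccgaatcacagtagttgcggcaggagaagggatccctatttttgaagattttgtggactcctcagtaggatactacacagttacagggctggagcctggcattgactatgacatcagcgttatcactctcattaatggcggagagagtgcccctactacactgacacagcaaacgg
Postn 81-base exon: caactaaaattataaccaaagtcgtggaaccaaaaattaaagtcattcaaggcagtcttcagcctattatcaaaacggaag
Postn 84-base exon: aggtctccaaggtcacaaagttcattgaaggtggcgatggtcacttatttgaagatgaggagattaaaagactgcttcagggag

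Most Fn1 transcripts in these hearts skipped both extra exons. Over 25 mice EDA was held in 21.8% ± 5.16 (SD, n = 25) of the TPM of transcripts that span it, with a lowest value of 14.8% and a highest of 37.8%. EDB was held in 3.51% ± 1.98 (SD, n = 25), and 1 carnosine mouse was listed at 0. The most abundant form, Fn1-203, made up 51.7% of Fn1. In Postn, 17.1% ± 9.83 (SD, n = 25) held the 81-base exon, 22.0% ± 9.62 (SD, n = 25) the 84-base exon and 94.6% ± 3.30 (SD, n = 25) a 78-base exon between them. The leading form, Postn-204, which lacks the first 2, made up 63.1% of Postn.

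No difference in these shares passed the test. EDA was at 22.8% ± 4.55 on CNTL and 22.0% ± 4.70 on HFHS in WT mice, and at 23.4% ± 8.20 and 19.7% ± 4.45 in GPx4+/- mice (SD, n = 5 each). With carnosine it was 21.2% ± 4.46 (SD, n = 5). Across the 5 exons and 5 comparisons of 2 groups, 25 exact permutation tests gave a smallest p of 0.0476, and none passed after Benjamini-Hochberg adjustment (smallest adjusted p = 0.935). That p belonged to EDB, at 5.41% ± 2.01 in WT CNTL and 3.01% ± 0.922 in GPx4+/- CNTL (SD, n = 5 each, exact permutation). Such shares rest on how reads were divided among overlapping transcripts, and the error of that division is unknown here.

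**Figure D3:**
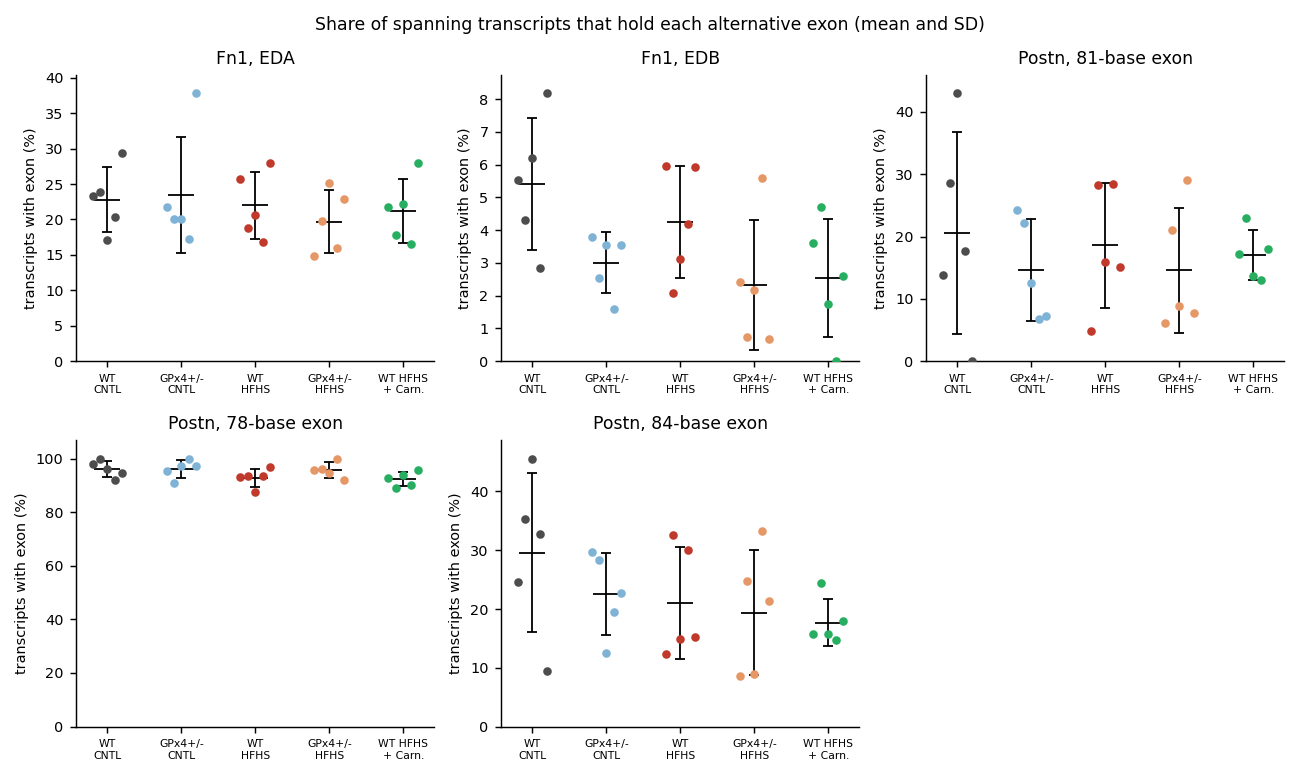
Share of spanning transcripts (vertical axis, percent of their TPM) that hold each of the 5 alternative exons of Fn1 and Postn, by mouse (points) and group (horizontal axis), with the mean and SD as bars. The groups overlap in every panel, and EDB stays under 10% while the 78-base Postn exon stays above 85%.

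Within groups the matrix genes varied together from mouse to mouse. For each pair of genes the deviations from the group means were correlated over the 25 mice, with p from 100000 permutations within groups. Of 45 pairs, 44 had a positive Pearson r, the median was 0.68, and 41 had an adjusted p under 0.05 (37 by Spearman's rho). Pairs of other genes were not counted, so no share over all genes stands beside these counts. Whether such joint variation is particular to the matrix genes was not tested. The strongest pair was Fn1 with Bgn at 0.93 (rho 0.92, adjusted p = 6.43e-05 by permutation for r), which stayed at 0.88 without the 2 mice farthest from the median. Lum and Dcn, neighbours on chromosome 10, had an r of 0.85 (rho 0.83), and Sparc and Fbn1 one of 0.85 (rho 0.84).

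Fbn1 had low values with Dcn and Lum. Its r was -0.02 with Dcn (adjusted p = 0.935 by permutation) and 0.10 with Lum (adjusted p = 0.63 by permutation). Sparc with Dcn had 0.25 (adjusted p = 0.275 by permutation) and Tnc with Dcn 0.31 (adjusted p = 0.174 by permutation). These 4 were the pairs that did not pass. Without the mice that stand apart the median r over the 45 pairs was 0.52 in 20 mice, and 24 pairs had an adjusted p under 0.05. All values of a mouse share its library and its scaling factor.

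**Figure D4:**
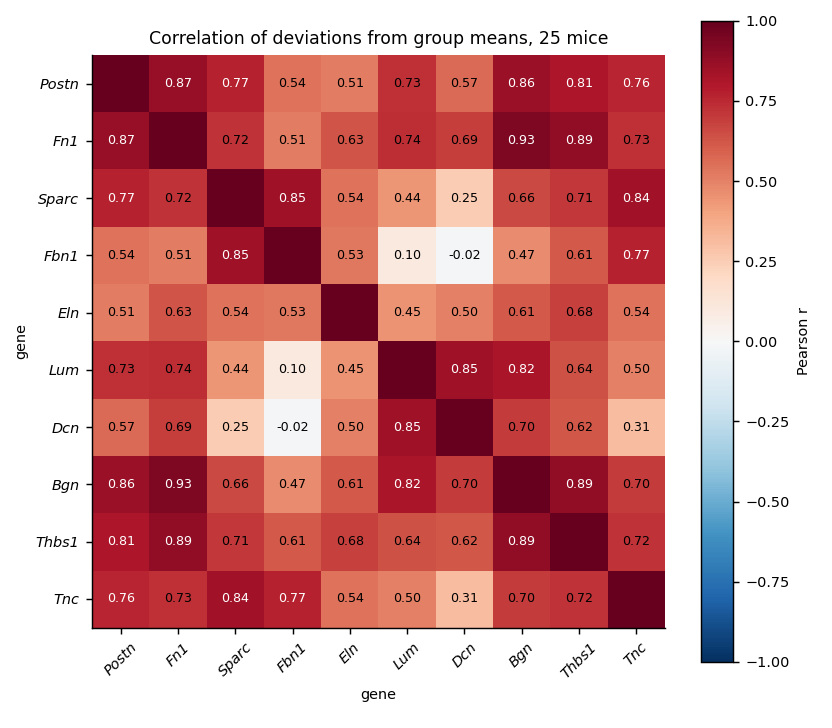
Pearson r between each 2 of the 10 matrix genes (both axes, gene symbols), from the deviations of log2(scaled TPM + 0.5) from the group means over 25 mice, on a colour scale from -1 to 1. The values run from -0.02 (Fbn1 with Dcn) to 0.93 (Fn1 with Bgn).

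Outside the 10, the genes whose levels over the 25 mice were most like the mean of the 10 standardized levels were Fstl1, Col5a2, Mfap5, Anxa2 and Mfap4. Fstl1, a secreted glycoprotein of the follistatin family, had a Pearson r of 0.97 (rho 0.95), and 0.941 without the 2 farthest mice. Col5a2, a chain of collagen V, had 0.956, the microfibril gene Mfap5 0.952, the annexin gene Anxa2 0.934 and the elastic fibre gene Mfap4 0.931. These are given as a description, since the genes were picked for their likeness.

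Among related matrix genes, calls with the diet came in 4 of 5 lists, receptors included. For the counts over both genotypes, the share of all genes called was 8.33%, and that of genes called and higher was 4.68%. There 3 of 14 tested matricellular genes were called, all higher, which were Smoc2 (log2 fold change 0.39, limma adjusted p = 0.00371), Sparcl1 (0.24, limma adjusted p = 0.00735) and Ccn1 (0.48, limma adjusted p = 0.0122). Of 15 elastic fibre and microfibril genes, 2 were called, Emilin1 (0.40, limma adjusted p = 0.0199) and Fbln2 (0.34, limma adjusted p = 0.0388). Of 11 genes for basement membrane and large proteoglycans, 3 were called, Lama2 (0.15, limma adjusted p = 0.0117), Lama5 (0.40, limma adjusted p = 0.0175) and Nid1 (0.18, limma adjusted p = 0.018). Of 8 other small leucine-rich proteoglycans 0 were called, and limma gave 0 an unadjusted p under 0.05, beside 24.5% of all genes. The one with the smallest p, Tsku, had a log2 fold change of 0.28 (limma adjusted p = 0.304). All these calls were higher on HFHS.

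In the diet comparison within GPx4+/-, where 3.34% of all genes were called, 1 of 14 matricellular and 1 of 13 receptor genes were called, Smoc2 and Cd36. Smoc2, a calcium-binding relative of Sparc, had 29.5 ± 5.80 scaled TPM (SD, n = 5) in GPx4+/- CNTL and 40.0 ± 4.53 (SD, n = 5) in GPx4+/- HFHS, with a log2 fold change of 0.45 (limma adjusted p = 0.0249). Cd36, a fatty acid transporter that is also a receptor of thrombospondin 1, had 978.6 ± 74.7 (SD, n = 5) and 1192.5 ± 134.7 (SD, n = 5), with 0.28 (limma adjusted p = 0.0394). In WT the log2 fold changes were 0.32 for Smoc2 (limma adjusted p = 0.138) and 0.03 for Cd36 (limma adjusted p = 0.862), and the difference between genotypes was not called for any gene. Of 13 receptor genes tested, 2 were called over both genotypes, beside 8.33% of all genes, Itgb1 (0.15, limma adjusted p = 0.0381) and Itga11, a collagen-binding integrin subunit of fibroblasts (0.39, limma adjusted p = 0.0438). Smoc2, Emilin1, Lama2, Cd36 and Tsku were named by a rule that uses their calls or p in these comparisons, and the other called genes of these lists were named after their values were seen. In WT HFHS + Carnosine against WT HFHS none of these lists held a called gene.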

How the data were processed

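RNA of tissue labelled heart, given as left ventricular in the submitters' extraction protocol, was sequenced as paired-end stranded mRNA libraries from 25 mice in 5 groups of 5. The authors deposited transcript TPM values, with kallisto 0.43.1, sleuth 0.30.0 and GRCm38 named in the submitters' processing notes. TPM keeps no read counts, so the exact depth per library is unknown here and no counting error can be given. Of 119215 transcripts, 116772 matched GENCODE M21 and were summed by gene, and the 2443 others were left out (at most 0.723% of TPM). Mitochondrial transcripts took 31.3 to 48.7% of TPM. Gene sums were divided by a median-ratio factor per library (0.864 to 1.16, from 11879 genes), and log2(scaled TPM + 0.5) was tested with limma 3.58.1 in R 4.3.3 for 11984 genes with a mean of at least 1, with Benjamini-Hochberg adjustment. Diet and genotype were fitted over 20 mice, carnosine over 10, and carnosine against WT CNTL over 25. Exact two-sided permutation tests went through all splits of the mice in Python 3.11.15, and scipy 1.17.1 gave ranks and Spearman's rho. The procedure was tested on simulated data. The alternatives were another pseudocount, other filters, unscaled TPM, protein-coding transcripts only, array weights, a replicate block, the compared groups alone and each mouse left out. The genes and lists were chosen with earlier results of these data known. Named were the 10 genes, up to 4 called genes per related list or the 1 with the smallest p, the 5 genes most like the mean of the 10, and Gpx4. Sequences are from RefSeq and the GRCm38 genome.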

Additional observations from a re-analysis of the deposited data

Results flagged for a closer look

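Within the 5 groups, 50 sets of 5 gene levels and 25 sets of 5 exon shares were examined for a mouse whose gap to its nearest neighbour was a larger share of the group's range than Dixon's 95% critical value for 5 samples, which chance exceeds in about 1 of 20 groups. For gene levels the gap was taken on the log2(scaled TPM + 0.5) scale, and the levels below are scaled TPM, while for exon shares it was taken on the percentages. Fn1 in WT CNTL replicate 3, a mouse with atrial and valve markers, had a gap of 0.721 of the range, at 17.4 scaled TPM against 9.08 to 10.9 in the other 4. Sparc in WT HFHS + Carnosine replicate 4 had one of 0.717, at 131.5 scaled TPM against 195.3 to 228.4. The share of Fn1 with EDA in GPx4+/- CNTL replicate 5 had one of 0.781, at 37.8% against 17.3 to 21.8%.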

How the results depend on the processing

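Of 1123 values of single matrix genes under an alternative, 1065 kept their direction and side of the threshold, 27 lost and 5 gained an adjusted p under 0.05, and 26 changed sign, none of these a called value. The cause of these changes was not tested. Part of the agreement was fixed in advance. In a comparison within 1 genotype, leaving out a mouse of the other genotype cannot change the fold change. Only Lum and Sparc over both genotypes were called in the main fit. With 1 mouse left out Lum kept its call in 7 of 20 fits and Sparc in 12 of 20. Over both genotypes the 2 matrix genes called became 0 with no filter on low values (more genes tested, limma adjusted p = 0.0818 for Sparc and 0.0985 for Lum) or with TPM as deposited, and 1 with the replicate block or without the 2 mice highest in valve markers. One mouse left out gave 0 to 2. Replicate numbers did not pair mice, since same-numbered mice of different groups had correlations from -0.341 to 0.234 (median -0.00242) over 50 pairs and 5 of 25 mice correlated best with their own number. With the block the adjusted p from limma was 0.0329 for Sparc and 0.0531 for Lum.

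In WT the 142 genes called on HFHS became 43 with no filter, 38 with TPM as deposited, 405 with array weights, 68 with the replicate block, 74 with only the 2 groups compared, 77 without the 2 valve-marker mice and 36 to 202 with 1 mouse left out. In GPx4+/- the 400 became 235 with no filter, 124 with only 2 groups and 191 to 484 with 1 mouse left out. For carnosine against WT CNTL the 141 became 55, 75, 398, 76 and 28 under the first 5 of these settings, 86 without the 5 mice that stand apart and 53 to 248 with 1 mouse left out. Matrix genes called were 1 in each of WT diet and carnosine against WT CNTL without the 5 mice that stand apart, and 0 to 1 with 1 mouse left out. Higher against lower calls with TPM as deposited were 21 and 17 in WT (79 and 63 scaled) and 23 and 52 for carnosine against WT CNTL (81 and 60 scaled). The median over all genes moved to -0.107 for the difference between diet effects, where 1 mouse left out gave 0 to 1 called genes. GPx4+/- against WT on HFHS had 6 genes, 3 with protein-coding transcripts only and 5 to 8 with 1 mouse left out. Over both diets 7 became 4 with a mean of at least 5 or with protein-coding transcripts only.

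The values that changed sign were those of Fbn1, Thbs1, Dcn, Postn and Sparc. Fbn1 in WT was -0.10 with array weights, -0.25 without the 5 mice or the 2 mice, and -0.17 to 0.14 with 1 left out. Over both genotypes it was -0.0032, -0.02 and -0.06 under those 3 settings, and -0.02 to 0.14 with 1 left out. Thbs1 in WT ranged from -0.64 to 0.19, and Dcn in GPx4+/- from -0.01 to 0.17, with -0.01 for TPM as deposited. With carnosine, without the 5 or the 2 mice Postn was 0.06 and Thbs1 0.29, and Sparc was -0.02 with TPM as deposited. With 1 mouse left out they ranged from -0.46 to 0.06, -0.53 to 0.29 and -0.03 to 0.18. Correlated pairs numbered 24 without the 5 mice and 28 to 41 with 1 left out.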
